A study of Danio rerio with 50 samples.

Results

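Zebrafish olfactory sensory neurons (OSNs) with 2 abundant odorant receptor (OR) genes, here the 2-OR cells, were described from single-cell RNA sequencing. They were 7 of the 29 cells that the study lists as mature and OR-expressing, among 47 single cells and 50 libraries in all. The 2-OR cells were chosen by their OR levels. The reads of each gene were scaled to the total assigned to genes in that cell (counts per 1000000, CPM), and a cell was taken if its second-highest OR gene was at 100 CPM or more. The other 22 cells of the list, here the 1-OR cells, had a second-highest OR gene below 10 CPM, and 0 cells fell between these thresholds. With a second OR from 500 CPM, or with levels scaled by DESeq2 size factors in place of totals, 4 cells were taken, namely s20599, s23574, s23558 and s20595 both times. With a second OR at 1% or more of the OR reads of the cell, 10 cells were taken. Because OR levels chose the cells, all OR values below are descriptions without a test.

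All single cells came from pools of 48 hpf embryos of an intercross of heterozygous OMP:RFP fish in the Tu/TLF background. The 2-OR and 1-OR cells thus shared strain, stage and transgene. In the transgene the promoter of the olfactory marker protein gene drives red fluorescent protein, which labels ciliated OSNs and was used to sort the cells. Single cells were captured on the Fluidigm C1, without treatment, and either Fluidigm or ERCC spike-in RNAs were added. Of the 2-OR cells, 4 had the Fluidigm and 3 the ERCC spike-ins, and of the 1-OR cells 7 and 15. These sets are treated here as separate captures, which the sources do not state outright. Captures were inspected by eye, and the study removed suspected cell clumps with a low share of spike-in reads. Doublets were not called again here. The 3 bulk libraries used below came from 48 hpf embryos of another cross. In it, heterozygous OMP:RFP, UAS:Citrine fish were mated to heterozygous or111-7:IRES:GAL4 fish.

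An OSN senses odors through receptors in its cilia, and a mature OSN is known to express a single OR gene out of a large family, together with silencing of the others. Zebrafish OR genes lie in clusters and are divided into clades A, B and C and, within these, into numbered subfamilies, so that or111-2 and or111-11 belong to subfamily or111. A bound OR activates the olfactory G protein (gnal, with gnb1 and gng13), which stimulates adenylyl cyclase 3. Cyclic AMP then opens the cyclic nucleotide-gated channel (cnga2, cnga4), and the calcium-activated chloride channel ano2 amplifies the current.

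The table of counts held 143 OR genes, of which 57 were of clade A, 54 of clade B and 32 of clade C, in 36 subfamilies. The second-highest OR gene of the 2-OR cells lay between 145 and 5173 CPM (median 676 CPM). In the 1-OR cells it lay between 0.375 and 9.58 CPM (median 2.39 CPM). The cells just inside the threshold were s20556, with or133-8 at 145 CPM, and s18928, with or109-4 at 181 CPM. The cells just outside were s18927, with or111-11 at 9.58 CPM, and s23571, with or133-1 at 9.005 CPM. The predominant OR gene ranged from 2124 to 14109 CPM in the 2-OR cells (median 9161 CPM) and from 55.5 to 31584 CPM in the 1-OR cells (median 3655 CPM), so that the ranges overlapped. The ratio of the first to the second OR gene was 1.22 to 78.1 in the 2-OR cells (median 14.96) and 21.4 to 23274 in the 1-OR cells (median 1804). In the 18 cells outside the list the highest level of any OR gene was 4.72 CPM.

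**Figure D1:**
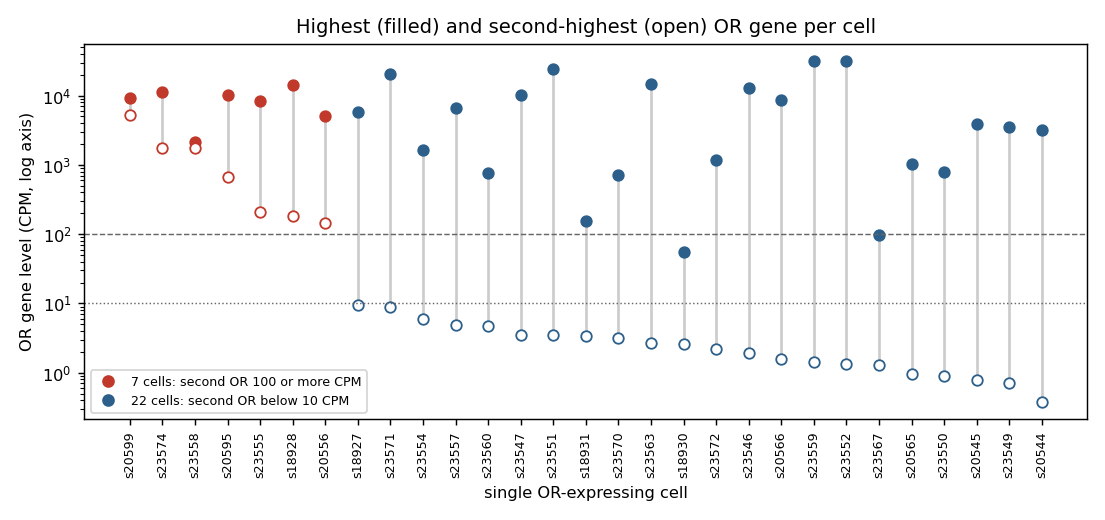
Level of the highest (filled) and second-highest (open) OR gene in each of the 29 OR-expressing cells, in CPM on a log axis, with the 7 2-OR cells in red and the 22 1-OR cells in blue. The dashed and dotted lines mark 100 and 10 CPM, and no open circle lies between them.

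Depth overlapped between the groups. Total counts ranged from 10819630 to 30192554 per 2-OR cell (median 19117628) and from 6951519 to 24662525 per 1-OR cell (median 17903656.5). Thinned to 6951519 counts each, the 2-OR cells held 4173 to 7438 detected genes (median 4590) and the 1-OR cells 3700 to 6549 (median 5100.5). The highest number was that of the 2-OR cell s20595, both thinned and unthinned (8861 genes). Without it the 2-OR cells lay within the range of the 1-OR cells. One 1-OR cell stood apart: s18930 had 20.3% of its counts on ribosomal protein genes and the lowest predominant OR of the list (or111-11 at 55.5 CPM).

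In 2 of the 2-OR cells both leading ORs were at similar levels. The cell s23558 held or133-2 (2124 CPM) together with or129-1 (1746 CPM), and or129-1 made up 45.1% of all OR reads (exact 95% interval 44.6 to 45.5%, for counting error alone). The cell s20599 held or106-8 (9161 CPM) together with or111-2 (5173 CPM), or 33.8% of the OR reads (33.6 to 33.9%). Both pairs were of a single clade, clade C in s23558 and clade A in s20599, but of different subfamilies. In addition, s20599 had or111-11 at 685 CPM and or110-2 at 299.6 CPM, and was the 2-OR cell with the most OR genes at 100 CPM or more, 4 in all, each of clade A.

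In the 5 other cells a single OR predominated more clearly. In s23574 or111-4 led with 11180 CPM, followed by or111-11 at 1767 CPM (12.2% of OR reads, interval 12.04 to 12.3%) and or111-6 at 1576 CPM, so that 3 genes of subfamily or111 were read together. In s20595 or136-1 (clade C) was at 10106 CPM and or106-7 (clade A) at 676 CPM, or 6.26% of OR reads (6.12 to 6.40%). In s20556 or125-4 (clade B) was at 5153 CPM, or133-8 (clade C) at 145 CPM, or 2.70% of OR reads (2.63 to 2.78%), and or106-7 (clade A) at 48.9 CPM. This was the only cell of the 29 with OR genes of all 3 clades at 10 CPM or more. In s23555 or125-5 was at 8353 CPM and or125-7, of the same subfamily, at 207 CPM, or 2.41% (2.34 to 2.49%). In s18928 or106-8 was at 14109 CPM, or109-4 at 181 CPM, or 1.26% (1.22 to 1.31%), and or109-7 at 16.5 CPM. All OR genes that made up the rest were below 10 CPM in these 7 cells.

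**Figure D2:**
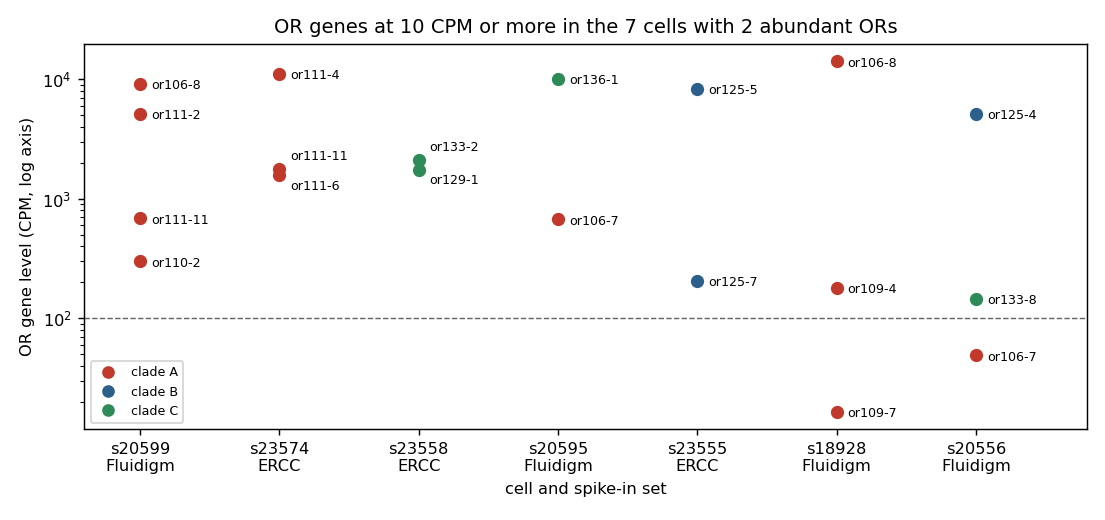
OR genes at 10 CPM or more in each of the 7 2-OR cells, in CPM on a log axis and coloured by clade, with the spike-in set under the cell name. Genes of 1 clade share a cell in 5 of the 7 cells, and only s20595 and s20556 hold genes of several clades, in both cases with or106-7.

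The 2 most abundant ORs were of the same subfamily in 2 of the 7 2-OR cells, of the same clade but of different subfamilies in 3, and of different clades in 2. Counting every pair of OR genes at 100 CPM or more within a cell gave 14 pairs, of which 5 (35.7%) shared the subfamily and 12 (85.7%) the clade. Over all 10153 pairs of the 143 OR genes, 4.50% shared the subfamily and 34.7% the clade. Over the 231 pairs of OR genes that predominated in any of the 29 cells, these shares were 3.03% and 31.2%. The 14 pairs are not independent, since 6 came from s20599 and 3 from s23574. Without each cell in turn, the share of pairs within a clade was 75.0 to 92.3%. Read sharing between near-identical genes of a subfamily was not tested, so that the levels within or111 and within or125 are uncertain. When the genes of each subfamily were summed, 5 of the 7 cells kept a second subfamily at 100 CPM or more, and s23574 and s23555 did not.

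Positions were looked up by gene name in the RefSeq annotation of assembly GRCz12tu, where 123 of the 143 OR genes matched 1 gene each. Genes lying between a pair were counted as OR genes only if among these 123, so that these counts are lower limits. This assembly is not the one the reads were aligned to, so that only the order of genes was used. Of the 13 pairs with both genes matched, 7 (53.8%) lay on the same chromosome, beside 30.5% of all matched OR pairs. Between or111-4 and or111-6 (s23574) lay 1 gene, itself an OR gene. Between or125-5 and or125-7 (s23555) lay 2 genes, 0 of them among the matched OR genes. In s23574 6 genes lay between or111-4 and or111-11 and 4 between or111-11 and or111-6, all of them OR genes, and in s20599 9 genes lay between or111-2 and or111-11, 8 of them OR genes. In s20599 6 genes lay between or106-8 and or110-2, and in s18928 10 genes between or106-8 and or109-4, of which 5 and 9 were OR genes. The leading pairs of s20599 (or106-8 and or111-2), s23558 (or133-2 and or129-1) and s20595 (or136-1 and or106-7) were on different chromosomes. The pair or125-4 and or133-8 of s20556 was not placed, since or133-8 had no match by name.

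Most second ORs of the 2-OR cells were close to absent elsewhere. In the next-highest of the 29 cells or109-4 and or133-8 were at 0.0924 CPM each, both in s20595 and equal to 1 read, or125-7 had 0.144 CPM and or111-2 0.462 CPM. The further co-occurring genes or110-2 and or111-6 reached 0.0507 and 0.214 CPM in any other listed cell. or106-7 was found at 676 CPM in s20595 and at 48.9 CPM in s20556 and at no more than 0.0898 CPM in the 1-OR cells, and it predominated in 0 cells. The 2 cells with an OR pair across clades were thus the 2 cells with or106-7. Both had Fluidigm spike-ins. or111-11 was found in s23574 (1767 CPM), s20599 (685 CPM), s18930 (55.5 CPM), where it was the predominant OR, and s18927 (9.58 CPM).

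In s23558 both leading ORs also predominated in a 1-OR cell. or133-2 made up 99.9% of the OR reads of s23571, and or129-1 at 3478 CPM in s23549, 3190 CPM in s20544 and 1161 CPM in s23572. In s23572 or133-2 was the second-highest OR, at 2.18 CPM. or106-8 led in 2 of the 2-OR cells, s18928 and s20599, beside different second ORs, and reached 3.82 CPM at most in the 1-OR cells. The first ORs of s20556 and s20595 also predominated in a 1-OR cell, or125-4 in s23551 (24372 CPM) and or136-1 in s23550 (787 CPM).

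**Figure D3:**
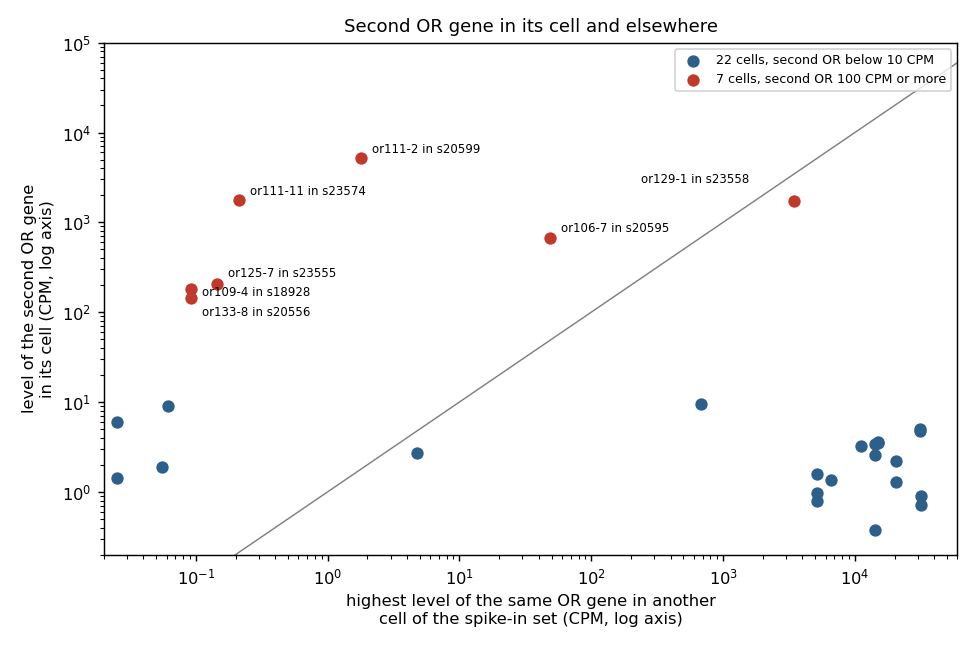
Level of the second-highest OR gene in its own cell against the highest level of the same gene in any other cell with those spike-ins, in CPM on log axes, with a level of 0 elsewhere drawn at the left edge and the line of equality in grey. In red, 6 of the 7 2-OR cells lie above the line, and in blue 4 of the 22 1-OR cells do. The height of each point was set by the rule that chose the groups.

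In 6 of the 7 2-OR cells the second OR was at its highest within the spike-in set, and it was the predominant OR of another cell of the set in 1 (or129-1 in s23558). In the 1-OR cells the second OR, at 9.58 CPM or below, was the predominant OR of another cell of the set in 17 of 22, and was highest in its own cell in 4. The rule that chose the groups set the level of the second OR. The contrast in these counts therefore follows in large part from that rule. Between 0.00228 and 56.8% of the level in the other cell was found in the 18 remaining 1-OR cells. Of these second ORs 4 of 22 shared the subfamily and 10 of 22 the clade of the first.

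The 3 bulk libraries, made from sorted cells positive for the or111-7 and OMP reporters, held several of the co-occurring ORs. Their transgene itself drives or111-7 together with GAL4. Their RNA was amplified by a chemistry different from that of the single cells, so that CPM of bulk and single-cell libraries were not compared. In the 3 libraries or110-2 was at 120, 40.5 and 165 CPM (mean 108 ± 62.9, SD, n = 3), and or111-11 at 2.64, 117 and 220 CPM (113 ± 109). The gene or111-2 had 0.377, 23.5 and 26.1 CPM and or111-6 had 24.9, 8.32 and 51.3 CPM, while or109-4 had no count. ORs of the other clades were read too. The clade B gene or125-4 was at 629, 83.8 and 100 CPM (271 ± 310), the highest mean of these ORs. Of clade C, or129-1 was at 0.0, 8.32 and 26.3 CPM and or136-1 had no count. The libraries differed widely in or111-11 and or111-2, so that no order was read from them. In such bulk samples fewer cells with an OR and less of its RNA per cell cannot be told apart.

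Receptors of other families stayed at low levels in 6 of the 7 2-OR cells, with s23574 as the exception. The summed level of trace amine-associated receptor (TAAR) genes was 0.0523 to 0.370 CPM in 6 of the 7 2-OR cells and 18.03 CPM in s23574, with taar20t at 12.4 CPM. A 1-OR cell, s23567, had taar14h at 13058 CPM beside its predominant OR or115-12 at 98.4 CPM, and the 1-OR cell s18927 had 384 CPM of V2R-type (olfc) receptor genes beside or121-2p, a gene named as a pseudogene. In the 2-OR cells olfc genes summed to 2.403 CPM at most and ora genes to 0.396 CPM at most.

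The 2-OR cells carried the markers of mature ciliated OSNs, which follows in large part from how the study chose its cells. It had kept the cells of both groups as mature by clustering on marker genes. Among these were ompb, gng13b and the immature markers gap43 and gng8. Mature markers that were high, and immature markers that were low, in both groups are therefore not a separate result. The marker ompb had at least 100 counts in all 7 cells, at 2624, 915, 2169, 1128, 398, 410 and 1747 CPM in s18928, s20556, s20595, s20599, s23555, s23558 and s23574. In the 1-OR cells its lowest, median and highest levels were 0.507, 466 and 1894 CPM. The G protein subunit gng13b was at 764, 575, 230, 4354, 434, 5797 and 1796 CPM in the 2-OR cells, in the same order, against 0.243, 1552 and 6794 CPM in the 1-OR cells. Both genes were thus read in every 2-OR cell, while 19 of 22 1-OR cells had 100 counts or more of ompb and 18 of 22 of gng13b. The groups overlapped, and s18930 and s20565 were the lowest 1-OR cells for both. With Fluidigm spike-ins the medians were higher in the 2-OR cells (ompb 1649 against 412.5 CPM, gng13b 669.5 against 252 CPM). With ERCC spike-ins they were lower (410 against 519 CPM and 1796 against 2188 CPM), so that the direction turned between the sets. The immature markers gap43 and gng8 were near 0, with gap43 at 0.0924 CPM or below in the 2-OR cells and up to 9.62 CPM in the 1-OR cells.

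Further members of the transduction cascade varied from cell to cell, although gnal, adcy3b, cnga2, cnga4 and ano2 were also in the study's clustering. The G protein alpha subunit gnal was at 3518, 236, 0.832, 2191, 552, 3153 and 1769 CPM in the 2-OR cells, so that only s20595 lacked it. The channel subunit gene listed as CNGA2_(1_of_2) was high in s20595 (4670 CPM), s20556 (571 CPM) and s23574 (180 CPM) and at 0.581 CPM or below in the other 4. Adenylyl cyclase adcy3b was high in s23555 (2391 CPM), s20556 (567 CPM) and s18928 (433 CPM) and at 0.225 CPM or below in the rest. Single transcripts were on or off in this way in both groups, with CNGA2_(1_of_2) at 100 counts or more in 3 of 7 and 12 of 22 cells, adcy3b in 3 of 7 and 8 of 22, and the marker ompa in 1 of 7 and 9 of 22.

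The chloride channel ano2 was at 0.628, 1566, 192, 494, 7.33, 382 and 842 CPM in s18928, s20556, s20595, s20599, s23555, s23558 and s23574, against 0.0, 1.19 and 439 CPM (lowest, median, highest) in the 1-OR cells. At least 100 counts were found in 6 of 7 and 9 of 22 cells, and within each spike-in set the median was higher in the 2-OR cells (343 against 8.90 CPM with Fluidigm, 382 against 0.331 CPM with ERCC spike-ins). The groups overlapped, since s18928 and s23555 had little. Of the 18 cells outside the list, 11 also had 100 counts or more of ano2, so that it was not particular to the 2-OR cells. In the fit described next the log2 fold change of ano2 was 3.20 (SE 2.26), with an adjusted p of 0.754 by edgeR, which did not pass. DESeq2 did not call it either (adjusted p of 0.234).

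**Figure D4:**
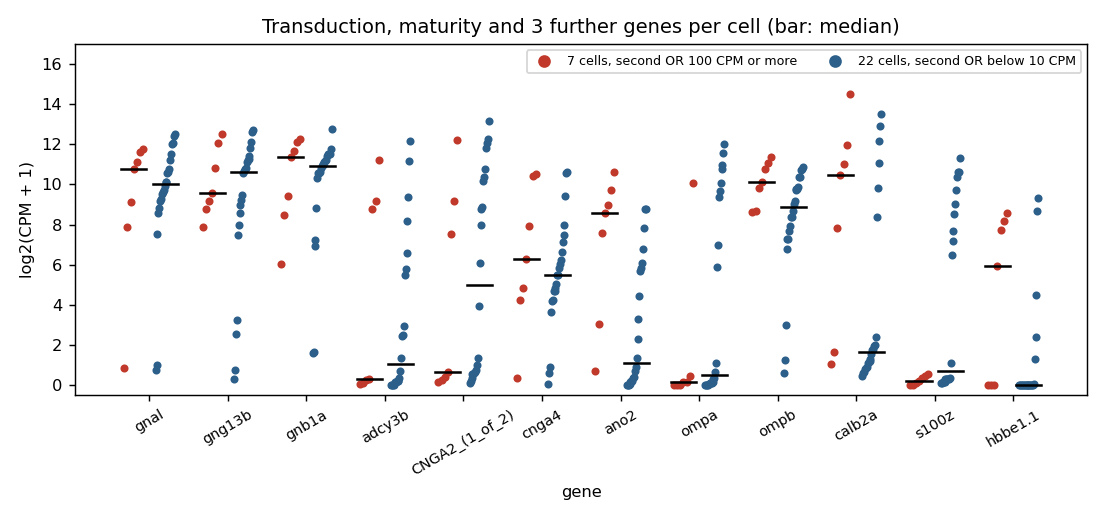
Levels of 9 transduction and maturity genes and of calb2a, s100z and hbbe1.1 in each cell, as log2(CPM + 1), with 7 2-OR cells in red, 22 1-OR cells in blue and bars at the medians. Each gene overlaps between the groups, ano2 is above 100 CPM in 5 of the 7 red cells, and s100z is near 0 in all of them.

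To ask whether maturity or transduction genes differed between the groups, counts were summed over the cells of each group within each spike-in set. This was done since single cells are not replicates. Both groups had been chosen as mature on some of these genes, so that the comparison was one among mature cells. The 4 sums, 2 per group, entered the quasi-likelihood test of edgeR, for the 5623 genes that reached 100 counts in 3 or more of the 29 cells. The test called 0 genes (0% of those tested, adjusted p of 0.05), while 316 (5.62%) had an unadjusted p under 0.05. By contrast, DESeq2 on the same sums called 159 genes higher (2.83%) and 799 lower (14.2%) in the 2-OR cells. A gene could pass the filter through the cells of 1 group alone, and the 1-OR cells were 22 against 7. The numbers called higher and lower were thus not read as a direction. In edgeR with a block for spike-in set, 4 genes were called. For 0 of the 5623 genes did all 2-OR cells lie above all 1-OR cells, and for 0 below (0% each).

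The lists of genes were read beside the median of all genes tested, which was -0.17 on the log2 scale and within the sets -0.39 (Fluidigm) and -1.55 (ERCC, where 3 cells were set against 15). Within a set, values were log2 ratios of the CPM of the sums, with 1 CPM added and without the scaling of the fit. They are thus unlike the fitted fold changes, and each set was read beside its own median. Of all 5623 genes tested, 2663 had a positive and 2960 a negative fitted fold change. The transduction list had 16 of its 40 genes tested. Its median log2 fold change was 1.01, 14 genes were positive and 2 negative, and edgeR called 0, while DESeq2 called gnal2, a second alpha subunit gene, as higher and reep1, of the receptor expression-enhancing family, as lower. gnal2 was at 1154 CPM in s23558 and at 0.0 in the 6 other 2-OR cells, so that this call rested on 1 cell. reep1 had 100 counts in 0 of the 2-OR cells and passed the filter through the 1-OR cells alone. The mature marker list, which shares most of its genes with the transduction list (8 of 13 tested, 6 positive, 2 negative) had a median of 1.098, with 0 called by either test. The immature marker list (18 of 32 tested, 12 positive, 6 negative) had a median of 0.73, also with 0 called by either. The sign was the same within both spike-in sets for 8 of 16 transduction, 6 of 8 mature and 9 of 18 immature genes. Over all 5623 genes it was the same for 2951. As differences between the medians over cells, in place of fits to sums, the 3 list medians were 0.40, 0.21 and 0.16.

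Within the ERCC cells the medians of the transduction and the mature list were both -0.16, and that of the immature list was -0.80. All 3 were above the median of all genes in both sets. The transduction list was 1.44 above it with Fluidigm and 1.399 with ERCC spike-ins, the mature list 1.76 and 1.399 and the immature list 0.68 and 0.75. The list of OR choice and the unfolded protein response, described below, was also above it, by 0.14 and 1.05. Of its 30 tested genes, 15 lay above the median with Fluidigm and 17 with ERCC spike-ins, against 13 of 16 transduction genes in each set. A place above this median was thus shared by the immature list in both sets, and by the list of OR choice mainly with ERCC spike-ins. Whether it was particular to any list was not tested. Summed per cell, the transduction genes gave 7287 to 15382 CPM in the 2-OR cells (median 10959) and 683 to 15464 CPM in the 1-OR cells (median 11030). The mature genes summed to 3859 to 10833 CPM (median 7281) and to 2.88 to 15368 CPM (median 8159), and the immature genes to 3313 to 9610 CPM (median 7757) and 787 to 16064 CPM (median 7997). The 2-OR cells thus lay inside the range of the 1-OR cells for each sum, with medians that were lower, not higher, than in the 1-OR cells.

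Among immature markers still read in the mature cells, the microtubule regulator stmn1b was at 407 to 5413 CPM in all 7 2-OR cells (median 2377) against 0.770 to 6597 CPM (median 1365), with a log2 fold change of 0.70 (SE 0.77). Its medians were 2665 against 1317 CPM with Fluidigm and 594 against 1413 CPM with ERCC spike-ins, so that the direction turned between the sets. The neuronal RNA-binding protein gene elavl3 was at 4.69 to 1745 CPM (median 832) against 1.32 to 7104 CPM (median 382). The transcription factor insm1a, which acts in olfactory precursors in mice, was at 0.0331 to 1060 CPM (median 298) against 0.0438 to 4167 CPM (median 258). For both the fold change of the sums had the opposite sign to that of the medians, at -1.04 (SE 1.04) and -0.60 (SE 2.05). Their medians also turned between the sets. For elavl3 they were 480 against 1301 CPM with Fluidigm and 1436.5 against 336 CPM with ERCC spike-ins. For insm1a they were 149 against 0.152 CPM and 315 against 709 CPM. None of these genes passed. Progenitor genes were low in the 2-OR cells, where the list (17 of 18 in the table) summed to 0.150 to 95.8 CPM, with a median of 1.36 CPM, against 0.0481 to 5285 CPM with a median of 7.65 CPM in the 1-OR cells. The replication gene pcna was at 5.54 CPM or below in the 2-OR cells and reached 4498 CPM in s18930 and 3834 CPM in s23567, both 1-OR cells.

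The unfolded protein response is known to act in the feedback that stabilizes a chosen OR in mice. Of the list of genes of OR choice and of this response, 30 of 48 were tested. The median was 0.56, 19 were positive and 11 negative, 0 were called by edgeR, 3 had an unadjusted p under 0.05, and 5 of the 30 were lower by DESeq2 (emx2, lhx9, ehmt1a, eif2s1a and smarca4a), a share near the 14.2% of all genes tested. These 5 genes had 100 counts in 0 of the 2-OR cells and passed the filter through the 1-OR cells alone. Their lower values were thus in large part built in, and the calls are not support for a difference. The homeobox genes emx2 and lhx9 were at 0.545 and 0.300 CPM at most in the 2-OR cells and at 100 counts or more in 4 of 22 1-OR cells each, where they reached 2871 and 2833 CPM. Most cells of both groups lacked them. The translation-controlled factor atf5a was read in all 7 2-OR cells, at 89.6 to 5608 CPM (median 888), against 0.933 to 4864 CPM (median 660, with 100 counts or more in 21 of 22). With ERCC spike-ins alone its median was lower in the 2-OR cells (888 against 1137 CPM). The Lim domain-binding cofactor ldb1a was at 0.314 to 3035 CPM (median 537), against 0.161 to 4267 CPM (median 2.42). The log2 fold changes of atf5a and ldb1a were 1.29 (SE 0.92) and 1.88 (SE 1.196), neither of which passed by edgeR (adjusted p of 0.763 and 0.665). The histone demethylase kdm1a was at 468 CPM in s20556 and at 6.46 CPM or below in the other 2-OR cells.

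Genes that mark other cell types were examined too, and their part in the results was not tested. The calcium-binding protein s100z, a crypt neuron marker, was at 0.462 CPM or below in the 2-OR cells and had at least 100 counts in 10 of the 22 1-OR cells, where it reached 2585 CPM. Its log2 fold change was -10.88 (SE 4.46), with an unadjusted p of 0.0178 and an adjusted p of 0.600 by edgeR and of 2.27e-04 by DESeq2. With 100 counts in 0 of the 2-OR cells, s100z passed the filter through the 1-OR cells alone. These p-values are thus not support for a difference. Of the 18 cells outside the list, 7 also had 100 counts or more. The other crypt gene, ora4, was at 0.396 CPM at most in the 2-OR and 0.144 CPM at most in the 1-OR cells. Blood genes (7 of 9 in the table) summed to 0 to 850 CPM in the 2-OR cells (median 68.9) and to 0 to 647 CPM in the 1-OR cells (median 0). The embryonic globin hbbe1.1 had at least 100 counts in 4 of 4 2-OR cells with Fluidigm spike-ins, at 59.9 to 376 CPM, in 3 of 7 1-OR cells and in 2 of 3 cells outside the list of that set. It was at 0 in all ERCC cells, and the 3 2-OR cells of that set were thus without it. The myelin gene plp1b was at 1948 CPM in s23555 and no higher than 0.288 CPM in any 1-OR cell, and lens genes summed to 454 CPM in s18928 and to 456 CPM in the 1-OR cell s23570. The microvillous list summed to 2.197 to 3806 CPM (median 16.6), against 0.162 to 5149 CPM (median 563), with its defining channel trpc2b at 0.108 CPM or below in the 2-OR cells. These medians mix the sets. Within them, the list gene gnao1a had medians of 4.18 against 4.31 CPM with Fluidigm and 675 against 317 CPM with ERCC spike-ins. For gnao1b the medians were 0.282 against 0.709 CPM and 43.5 against 99.7 CPM. Epithelial genes summed to 1092 to 7797 CPM (median 2879), against 77.5 to 13199 CPM (median 4875), and the 5 of the 13 that were tested had negative fold changes, with 0 called. Of these icn (-0.024) and cldnb (-0.087) were near 0. The sign was the same within both spike-in sets for 2 of the 5, with medians of -0.79 (Fluidigm) and 0.059 (ERCC). Macrophage and muscle genes summed to 0.826 and 1.59 CPM at most in the 2-OR cells.

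One gene outside the lists, calb2a, was chosen after its values were seen, because edgeR called it under more of the alternative settings than any other gene. It encodes calretinin, a calcium-binding protein of many OSNs. In the 2-OR cells it was at 1403, 23598, 223, 2.17, 3990, 1.05 and 2047 CPM in s18928, s20556, s20595, s20599, s23555, s23558 and s23574, against 0.365, 2.17 and 11688 CPM (lowest, median, highest) in the 1-OR cells. At least 100 counts were found in 5 of 7 and 6 of 22 cells, so that the groups overlapped, and the 2 cells with the most even OR pairs, s20599 and s23558, were its lowest. Of the 18 cells outside the list, 11 also had 100 counts or more. The log2 fold change of calb2a was 2.63 (SE 0.65), with an adjusted p of 0.600 by edgeR and of 0.406 by DESeq2. With the spike-in set as the block it was 2.93 and passed, at an adjusted p of 4.2e-13 by edgeR. With 2 sums per group and a block, little replication was left behind this p-value. Without s20556 the fold change was 0.48, and with 2-OR cells from 200 CPM it was 0.11.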

How the data were processed

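Raw read counts per gene (29033 genes) were deposited for 47 single cells and 3 bulk libraries. The authors amplified the cDNA of the single cells with the SMARTer chemistry. The bulk mRNA was amplified in another way, with an oligo-dT primer that carried a T7 promoter. The trimmed reads were aligned to GRCz10 by STAR and counted without normalization. The methods name VERSE as the counter, and the submitters' processing notes name CASAVA 1.8.2, STAR and HTSeq. There were no molecular identifiers, and 0 per-sample columns were left unused. CPM are shares of reads, not of molecules, as transcript lengths of that annotation were not used here.

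OR genes were those named or100 to or139 by subfamily, and zgc:152857. The 29 cells and their clades follow the study's list. Members and gene lists were chosen with earlier results of these data known. Intervals are Clopper-Pearson. Sums were compared with edgeR 4.0.16 (R 4.3.3, quasi-likelihood test after TMM scaling, p-values adjusted by Benjamini-Hochberg), and DESeq2 1.42.0 was an alternative. The edgeR code was also run on simulated counts with known changes, whose spread was set and not taken from these sums. That run does not give the power of the test here. The SE of a log2 fold change is its size over the root of F. Alternatives changed normalization, filter, test, block, thresholds and cells. The spike-in set, given in the labels, pairs the sums. The deviations of the sums of a set correlated at 0.0569. Genes named were ORs at 100 CPM or more, genes of the lists, and genes called by the fit with the same direction in both sets. The fit called 0.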

Additional observations from a re-analysis of the deposited data

Results flagged for a closer look

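Of 17 values compared over the 7 2-OR cells, 6 had a cell that lay far from the others by Dixon's criterion, which chance alone meets in about 1 group in 20. The values were levels on a linear scale, on which genes that are on in few cells stand out. The number of detected genes was highest in s20595 (8861). The summed TAAR level was highest in s23574 (18.03 CPM). The marker ompa was at 1062 CPM in s23558, CNGA2_(1_of_2) at 4670 CPM in s20595 and adcy3b at 2391 CPM in s23555, each far above the next cell. The immature marker gap43 was highest in s20595, at 0.0924 CPM, which is 1 read.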

How the results depend on the processing

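The count of 2-OR cells was 4 with the second OR from 500 CPM and 4 with DESeq2 size factors in place of totals, 5 from 200 CPM, and 10 with a second OR at 1% or more of OR reads, where the 1-OR cells s18930 (4.42%), s18931 (2.15%) and s23567 (1.26%) were added. The count of genes called, 0 in the leading edgeR fit, was 958 with DESeq2, 2 with RLE size factors, 4 with the replicate block, 4 with no filter on low counts, 1 with 2-OR cells from 500 CPM and 2 with 1-OR cells below 2 CPM. Without 1 cell or 1 sum in turn it was 0 to 2. It stayed at 0 without s18930 and with 1-OR cells limited to a predominant OR from 100 CPM (20 cells) or from the lowest of the 2-OR cells (13 cells), which were alternatives chosen after seeing the data. Named after their values were seen, the genes called were calb2a and pvalb5 with RLE, these and hsp90aa1.2 and sqstm1 with the block, calb2a and atp6v0a1a below 2 CPM, asph from 500 CPM, calb2a and hsp70l without the Fluidigm sum of the 1-OR cells, and calb2a alone without s18928, s20595, s20599 or s23574. With no filter they were or106-8, or111-4, or125-5 and zgc:152857, which helped to choose the cells. Of the others, atp6v0a1a had 100 counts in 0 of the 2-OR cells and passed the filter through the 1-OR cells alone. Over 23 fits calb2a was called in 8 and positive in 22, with -0.63 from 500 CPM. RLE moved the median of all genes to 0.72, the transduction median to 2.02, the mature median to 2.03 and the immature median to 1.64. These 3 medians were 0.40, 0.21 and 0.16 as medians over cells and 0.45, 0.28 and 0.0969 with 1-OR cells below 2 CPM. With ERCC cells alone the medians of the transduction, mature and immature lists were -0.16, -0.16 and -0.80, as ratios of CPM and not as fits. Without 1 cell or sum in turn they were 0.78 to 1.72, 0.40 to 1.55 and -0.0712 to 0.92, the lowest immature median without the Fluidigm sum of the 2-OR cells. The causes were not tested. The tests of genes are limited by 2 sums per group.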
